A study of Mus musculus with 17 samples.

Results

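Neratinib was added to tumour organoid conditioned medium (CM) on mouse pancreatic stellate cells, and the 4 libraries from CM with 300 nM neratinib were compared with the 4 libraries from CM alone. These 8 of the 17 libraries were taken by their labels, and every gene was examined, with each neratinib library paired to the CM library of the same cell line and replicate number. The cells were the lines PSC4 and PSC5, both labelled wild type and C57BL/6J, grown in Matrigel (a basement membrane gel) and treated for 4 days. PSC4 was at passage 23 (number 1) or 24 (number 2) and PSC5 at passage 27 (number 1) or 28 (number 2) in both groups, and both groups carried the medium code T8 at number 1 and T6 at number 2. The 4 pairs came from 2 lines, and the labels do not say whether the numbers stand for separate cultures or what T6 and T8 stand for. The p-values measure the spread between these libraries, and number, passage and medium code cannot be told apart. The other 9 libraries, 5 from control medium and 4 from cells given 20 ng/mL TGF-beta, entered the fit for the spread, and the control libraries give the level without CM.

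Pancreatic stellate cells are the lipid-storing mesenchymal cells of the pancreas that turn into fibroblasts in tumours, where they lay down matrix and secrete cytokines. Neratinib is an irreversible kinase inhibitor of EGFR, ERBB2 and ERBB4, members of the receptor family that answers to EGF-like ligands and signals through RAS to the kinase ERK and through PI3K to AKT. Stellate cells in CM meet the factors that tumour cells release, and ERBB ligands are among the factors that pancreatic tumour cells can make. Some other programmes matter for reading the results. Interferon-stimulated genes are switched on at a DNA element called the ISRE by factors that include STAT2 and IRF9, whereas ATF4 is the transcription factor of the integrated stress response, which raises amino acid transport and synthesis from elements called CARE.

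The CM libraries held 26716129 to 29421447 counts and the neratinib libraries fewer, 22168953 to 25967713, and counts of mitochondrial genes made up 1.78% to 1.98% of the CM libraries and 2.14% to 2.41% of the neratinib libraries, so that depth and mitochondrial share did not overlap between the groups. Their part in the results below was not tested. Stellate markers summed to 6222 to 7365 CPM (counts scaled to the effective library size) in CM and to 4661 to 7419 CPM with neratinib, with none of the 14 markers at 0. Markers of endothelial, acinar and Schwann cells were low. Adgre1 and Tyrobp (macrophage), Cldn5 (endothelial), Prss1 and Ptf1a (acinar), Sox10 (Schwann) and Muc16 (mesothelial) had 0 counts in all 8 libraries. The 7 mesothelial markers summed to 37.7 to 77.3 CPM in CM and 23.4 to 81.5 CPM with neratinib, against 5.67 to 37.4 CPM in control medium. The 9 macrophage markers summed to 14.9 to 73.6 CPM in CM and 7.24 to 31.8 CPM with neratinib, Cd74 being the 1 that was called, and the leukocyte marker Ptprc had 0 to 1 counts. Epithelial markers were highest in the T6 libraries, where the 20 genes summed to 211 to 233 CPM in CM and 194 to 376 CPM with neratinib. The sums were 41.5 to 94.5 CPM in the T8 libraries and 76.9 to 95.3 CPM in control medium. Krt8, a keratin of simple epithelia, was counted 1233 and 1173 times in CM with code T6 and 972 and 2052 times with neratinib and T6. With T8 it was counted 12 times in CM and 0 times with neratinib in PSC4 number 1. In PSC5 number 1 it was counted 147 and 219 times, against 0 to 2 times in control medium. Krt18 (113 and 149 counts) and Cdh1 (34 and 56) in PSC5 number 1 were also above control (5 to 16 and 0 to 4). Of 4 Y-linked genes Ddx3y and Eif2s3y had 3 to 16 counts in the T6 libraries and 0 in the T8 libraries. The other Y-linked genes were counted with both codes, Kdm5d 18 to 31 times with T6 and 6 to 31 times with T8 and Uty 6 to 7 and 1 to 3 times. On the third principal component of all 17 libraries (14.9% of the variance), the 3 libraries labelled PSC4 number 1 lay between -37.0 and -1.76, within or next to the range of the PSC5 libraries (-36.2 to 3.60), whereas the other PSC4 libraries lay between 19.7 and 56.8. Results that rest on the PSC4 number 1 libraries are therefore given with and without them.

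The interferon-stimulated genes and the ATF4 targets had the medians furthest from 0 among the 29 pathway lists, and stretches of their promoters are shown because they hold the elements through which these programmes are known to act. The sequences are RefSeq promoters of build GRCm38.p6, written 5′ to 3′ on the gene's strand, and lie within the 250 bases before the RefSeq start site. In the first set, capitals mark each match to the ISRE core, which is GAAA, any 2 bases and GAAA again, on either strand. The stretches are at chr19:34583337-34583456 (+) for Ifit3, chr19:34640734-34640853 (+) for Ifit1 and chr5:120777685-120777804 (-) for Oas3.
Ifit3: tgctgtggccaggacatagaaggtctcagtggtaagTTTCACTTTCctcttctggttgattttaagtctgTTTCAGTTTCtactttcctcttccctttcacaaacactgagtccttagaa
Ifit1: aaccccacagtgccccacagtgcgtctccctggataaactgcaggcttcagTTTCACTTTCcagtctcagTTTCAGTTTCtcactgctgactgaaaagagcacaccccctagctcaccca
Oas3: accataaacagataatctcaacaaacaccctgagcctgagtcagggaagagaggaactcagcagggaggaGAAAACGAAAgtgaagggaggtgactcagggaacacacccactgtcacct
The neighbouring copy Ifit3b holds the same letters as Ifit3 over the same 120 bases. In the second set, capitals mark each match to the CARE core TGATGNAA on either strand, at chr11:120643804-120643923 (-) for Pycr1, chr3:50443615-50443734 (-) for Slc7a11 and chr2:119350992-119351096 (+) for Chac1.
Pycr1: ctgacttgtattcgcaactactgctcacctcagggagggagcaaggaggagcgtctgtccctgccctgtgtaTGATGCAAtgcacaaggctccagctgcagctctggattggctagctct
Slc7a11: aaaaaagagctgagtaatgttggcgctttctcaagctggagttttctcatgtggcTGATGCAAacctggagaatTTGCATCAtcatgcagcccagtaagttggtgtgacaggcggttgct
Chac1: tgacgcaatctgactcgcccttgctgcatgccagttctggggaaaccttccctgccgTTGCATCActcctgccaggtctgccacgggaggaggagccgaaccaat
Of 30 listed interferon response genes, 20 had a RefSeq promoter in the table and 10 of these (50%) held the ISRE core, against 936 of all 27025 promoters (3.46%). Of 26 listed ATF4 targets, 24 had a promoter and 8 (33.3%) held the CARE core, against 1056 of 27025 (3.91%). The ISRE core was in none of the 24 ATF4 target promoters and the CARE core in none of the 20 interferon promoters. Of the other lists searched, the ISRE core was in 5 of 30 promoters of ribosomal protein genes (16.7%), a list that rose, in 1 of 11 of MHC class I and in none of 18 NRF2 target promoters, and the CARE core was in 1 of those 18 (Slc7a11) and in none of the ribosomal and MHC class I promoters. No promoter of these lists held both cores, and a match describes the sequence only.

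Across the transcriptome, neratinib changed a large share of genes, mostly by small amounts. Of 13923 genes tested, 4563 (32.8%) passed the threshold (Benjamini-Hochberg adjusted p under 0.05 in edgeR's quasi-likelihood test), 2342 higher (16.8%) and 2221 lower (16.0%) with neratinib. Changes of at least 2-fold leaned to lower values, with 584 genes lower (4.19%) and 216 higher (1.55%). In 4375 of the 4563 called genes all 4 pairs moved the same way. The calls rest on these same pairs, so this agreement follows in part from the selection. For 2610 of the genes tested (18.7%) the 4 CM values and the 4 neratinib values did not overlap. The median log2 fold change over all genes was -0.004. The count fell to 2850 without the replicate block (the term that pairs the libraries) and to 2407 without the libraries labelled PSC4 number 1. With the CM library of PSC4 number 1 alone left out it was 2604, the lowest of the 8 fits that left out 1 of these libraries. Since the RNA came from whole cultures, fewer cells of a type and less RNA per cell cannot be told apart.

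**Figure D1:**
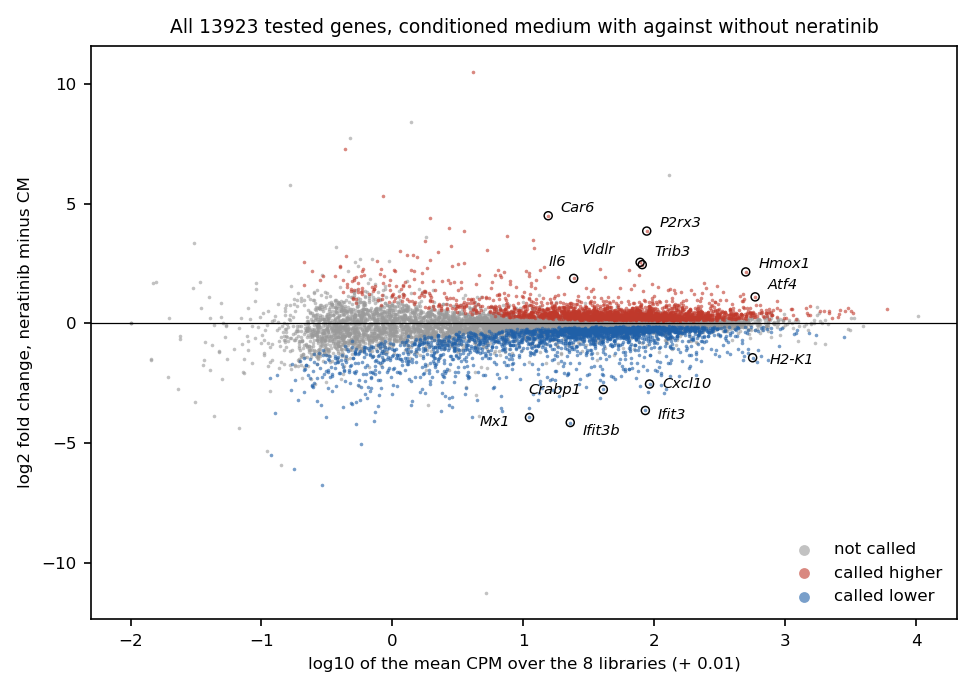
Each point is 1 of 13923 tested genes, plotted by log10 of its mean CPM over the 8 libraries (x axis) and its log2 fold change with neratinib (y axis), red where called higher and blue where called lower. Ifit3, Ifit3b and Mx1 lie at -3.63, -4.14 and -3.92, Trib3, Vldlr and Hmox1 at 2.46, 2.55 and 2.15, and 800 of the 4563 called genes lie beyond 2-fold.

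**Figure D2:**
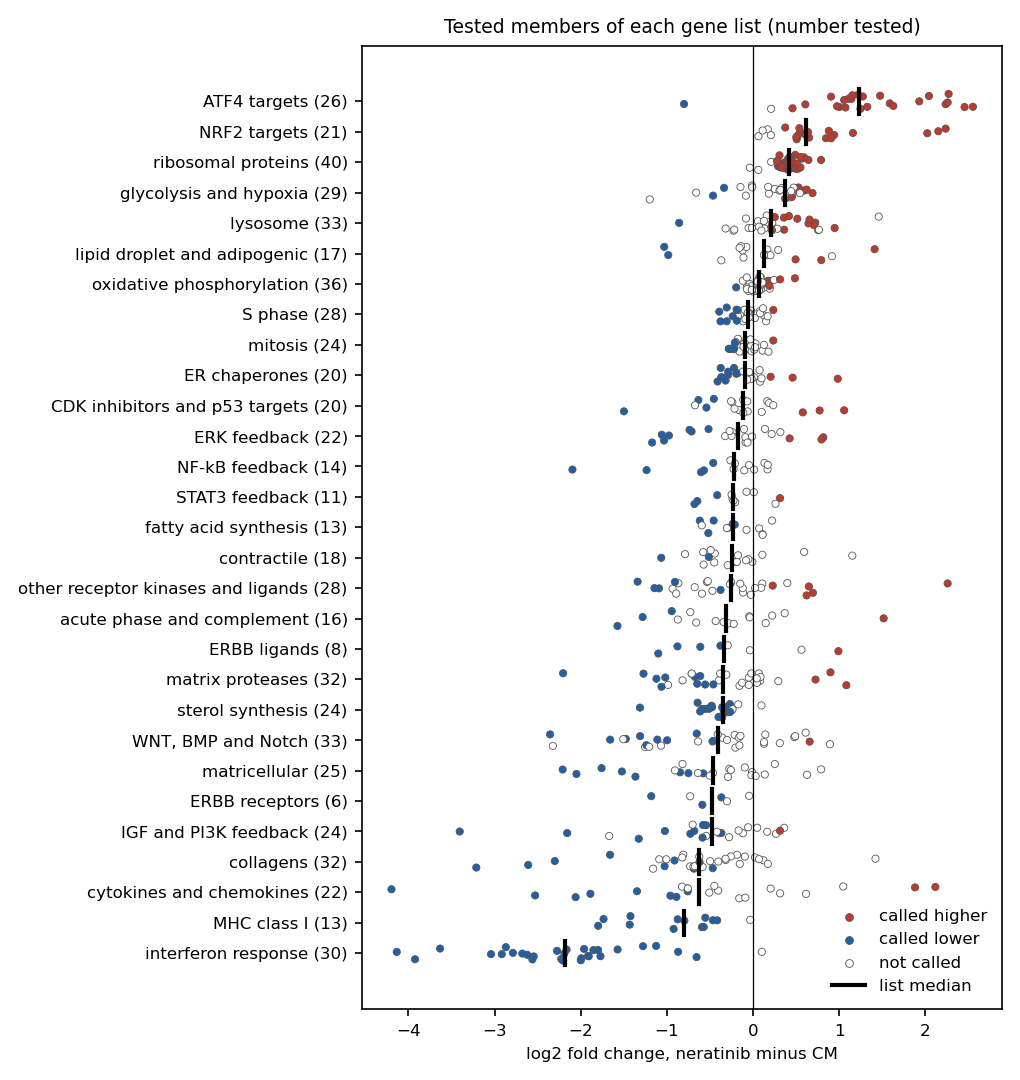
Each row is 1 of 29 gene lists with its number of tested members in brackets, each point a member's log2 fold change with neratinib (x axis), filled where called, and the black bar the list median. The interferon response list has its median at -2.18 and the ATF4 target list at 1.23, the furthest from 0, with MHC class I at -0.80 next on the lower side and the NRF2 targets at 0.61 next on the higher side.

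Among the receptors that neratinib binds and their inhibitors, Errfi1, Lrig1 and Erbb2 were lower and Egfr was not. Lrig3, also on the list, was not called (log2 fold change -0.30, edgeR adjusted p = 0.056), and Erbb4 was not tested. Errfi1 at chr4:150853919-150868892 encodes MIG6, an inhibitor of EGFR and ERBB2 whose transcription ERBB signalling drives. Its levels, in the order PSC4 number 1, PSC4 number 2, PSC5 number 1 and PSC5 number 2 that holds throughout, were 301, 228, 311 and 312 CPM in CM and 109, 106, 151 and 144 CPM with neratinib. Every neratinib library was below every CM library and below the control range of 155 to 245 CPM (log2 fold change -1.18 ± 0.10 (SE), edgeR adjusted p = 2.35e-05). Lrig1, a membrane protein that promotes degradation of ERBB receptors, went from 294, 204, 255 and 255 CPM in CM to 180.2, 138, 186 and 165 CPM, again without overlap (log2 fold change -0.59 ± 0.09 (SE), edgeR adjusted p = 0.00103). Erbb2 itself was at 77.2, 68.7, 86.7 and 71.5 CPM in CM and 50.01, 59.7, 69.9 and 56.3 CPM with neratinib. It was lower in each pair, although the groups overlapped slightly (log2 fold change -0.37 ± 0.07 (SE), edgeR adjusted p = 0.00313). Egfr read 317, 215, 365 and 314 CPM in CM and 245, 251, 397 and 272 CPM with neratinib, groups that cover the same range (log2 fold change -0.05 ± 0.13 (SE), edgeR adjusted p = 0.806). Erbb3, a receptor with little kinase activity of its own, was at 3.87 to 6.07 CPM in CM and did not pass the test (log2 fold change -0.73 ± 0.27 (SE), edgeR adjusted p = 0.0543), though it passed without the neratinib library of PSC5 number 2 (edgeR adjusted p = 0.00485) and by DESeq2 (adjusted p = 0.032). In all, 3 of 6 tested members of this list fell and none rose (50% and 0%, against 16.0% and 16.8% of all genes), with a median of -0.48.

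The ligands of these receptors did not move as 1 group. Nrg1, a neuregulin that binds ERBB3 and ERBB4, had 50.8, 59.9, 41.3 and 48.6 CPM in CM and 21.4, 39.03, 24.2 and 25.5 CPM with neratinib, and its CM values lay below the control range (76.2 to 83.3 CPM). The neratinib values lay below all CM values (log2 fold change -0.88 ± 0.20 (SE), edgeR adjusted p = 0.00669). Areg (amphiregulin, an EGFR ligand) was low throughout, with 3.5, 3.74, 4.86 and 4.12 CPM in CM and 2.85, 1.52, 1.25 and 2.25 CPM with neratinib. Those groups did not overlap either (log2 fold change -1.10 ± 0.27 (SE), edgeR adjusted p = 0.00939). Ereg (epiregulin) stood at 68.3, 70.1, 119 and 55.9 CPM in CM and 92.96, 59.9, 89.1 and 61.03 CPM with neratinib. The groups overlapped and the difference did not pass the test (log2 fold change -0.04 ± 0.19 (SE), edgeR adjusted p = 0.899), while both exceeded the control range of 21.5 to 27.1 CPM. Nrg2, another neuregulin, was called higher from a low level (log2 fold change 0.99 ± 0.24 (SE), edgeR adjusted p = 0.00937). In total 4 of 8 tested ligands fell and 1 rose (50% and 12.5%, against 16.0% and 16.8% of all genes). Of the 4, Hbegf (heparin-binding EGF, log2 fold change -0.38, edgeR adjusted p = 0.0258) and Btc (betacellulin, -0.61, edgeR adjusted p = 0.0487) lay near the threshold and depended on single libraries. Btc was not called in any of the 8 fits that left out 1 library, and Hbegf was not called without the CM library of any pair but PSC4 number 1, or without the neratinib library of PSC4 number 2 or PSC5 number 1. The count of lower ligands was therefore 2 to 3 in those fits, and 2 without the replicate block.

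Genes that ERK activity drives were lower in part. Egr1, an immediate early transcription factor, was at 317, 321, 426 and 389.6 CPM in CM and 177, 129, 252 and 149 CPM with neratinib. All neratinib values were below all CM values (log2 fold change -1.06 ± 0.16 (SE), edgeR adjusted p = 0.000886). Nab2, a corepressor of EGR factors that they induce, went from 172, 143, 170.4 and 169.8 CPM to 112, 94.8, 121 and 109 CPM, likewise separate, and had 1 of the 5 largest test statistics among lower genes with at least 50 CPM (log2 fold change -0.58 ± 0.06 (SE), edgeR adjusted p = 9.30e-05). Spry1, a Sprouty inhibitor of RAS signalling, read 34.4, 20.96, 20.5 and 22.7 CPM in CM and 4.64, 12.1, 18.3 and 9.94 CPM with neratinib. Its largest gap was in the PSC4 number 1 pair (log2 fold change -1.17 ± 0.30 (SE), edgeR adjusted p = 0.0113), and its log2 fold change was -0.71 without the libraries labelled PSC4 number 1. Dusp6, the cytoplasmic ERK phosphatase, had 73.3, 88.1, 88.6 and 67.5 CPM in CM and 45.03, 67.9, 66.4 and 43.99 CPM with neratinib. The values were lower in every pair but overlapped between groups (log2 fold change -0.52 ± 0.14 (SE), edgeR adjusted p = 0.0133), and the call was lost without the libraries labelled PSC4 number 1 (edgeR adjusted p = 0.0783) and without the neratinib library among them (edgeR adjusted p = 0.0507). Spry4, another Sprouty, missed the threshold with separate groups (log2 fold change -0.32, edgeR adjusted p = 0.0555) and passed by DESeq2 (adjusted p = 0.0426). The ETS factor Etv4 was not called (edgeR adjusted p = 0.202). Of 22 tested members of the ERK list 7 fell (Spry1, Egr1, Egr2, Egr3, Fos, Dusp5 and Dusp6) and 3 rose (31.8% and 13.6%, against 16.0% and 16.8% of all genes). Those 3 were Fosl1, an AP-1 subunit (0.82), the stress-inducible gene Ier3 (0.79) and the nuclear phosphatase Dusp4 (0.42). Without the libraries labelled PSC4 number 1 only 3 of the list were called lower and 1 higher. Leaving out 1 library gave 3 lower genes without the neratinib library of PSC4 number 1 and 4 without the CM library of PSC4 number 1, the CM library of PSC5 number 2 or the neratinib library of PSC4 number 2. It gave 1 higher gene on leaving out either library of PSC4 number 1 and 5 without the CM library of PSC5 number 1. Dropping the replicate block left 4 lower.

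Interferon-stimulated genes had the lowest median of the 29 lists. Of 30 genes listed and tested, 29 fell and none rose (96.7% and 0%, against 16.0% and 16.8% of all genes). The fall was at least 2-fold for 27 of them, against 4.19% of all genes, and the median log2 fold change was -2.18. Ifit3, an antiviral tetratricopeptide protein at chr19:34583531-34588731, had 206, 85.9, 147 and 184 CPM in CM and 3.19, 8.68, 31.9 and 15.6 CPM with neratinib. The groups were far apart, and each neratinib library was also below the control range of 62.01 to 149 CPM (log2 fold change -3.63 ± 0.58 (SE), edgeR adjusted p = 0.00118). Its copy Ifit3b at chr19:34607970-34613401 went from 58.2, 22.97, 40.4 and 49.6 CPM to 0.468, 1.595, 6.31 and 2.57 CPM (log2 fold change -4.14 ± 0.59 (SE), edgeR adjusted p = 0.000754). The 2 genes are near-identical, so the split of counts between them is uncertain. Irf7, the factor that amplifies interferon production, read 251, 105, 234 and 224 CPM in CM and 5.24, 14.7, 78.3 and 36.5 CPM with neratinib. The PSC4 number 1 pair fell most and the PSC5 number 1 pair least, and the groups did not overlap (log2 fold change -2.92 ± 0.55 (SE), edgeR adjusted p = 0.00269). Isg15, a ubiquitin-like modifier, had 253, 122, 227 and 239.5 CPM in CM and 20.3, 22.6, 101 and 64.7 CPM with neratinib (log2 fold change -2.19 ± 0.38 (SE), edgeR adjusted p = 0.00173). Here the neratinib library of PSC5 number 1 came close to the lowest CM library without reaching it. The GTPase Mx2 went from 39.3, 21.8, 32.97 and 37.1 CPM to 0.724, 2.57, 10.9 and 4.44 CPM (log2 fold change -3.04 ± 0.50 (SE), edgeR adjusted p = 0.00136), and Mx1, beside it on chromosome 16, from 28.1, 11.2, 21.2 and 22.2 CPM to 0.426, 0.7004, 3.98 and 1.1 CPM (log2 fold change -3.92 ± 0.54 (SE), edgeR adjusted p = 0.000634).

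Stat2, Irf9 and 2 sensors of this programme fell by less than the list median. Stat2 was at 323, 256, 308 and 265 CPM in CM and 68.4, 119, 191 and 121 CPM with neratinib (log2 fold change -1.28 ± 0.24 (SE), edgeR adjusted p = 0.00247), and Irf9, which encodes another subunit of the complex that binds the ISRE, fell too (-0.87), as did the RNA sensors Ddx58 (-1.85) and Ifih1 (-1.91). Ifi27 (0.10) was the 1 listed gene that did not pass the test. In 23 of the 30 genes the groups did not overlap, against 18.7% of all genes. CM alone had a higher mean than control medium for 29 of the 30, and with neratinib the mean was below that of control medium for all 30, 10 of them with every neratinib library below every control library, differences that were not tested here. The 29 calls stayed 29 in number in each fit that left out 1 library and without the PSC4 number 1 libraries. They numbered 26 in the 8 libraries alone with the block, and 23 without the block there.

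**Figure D3:**
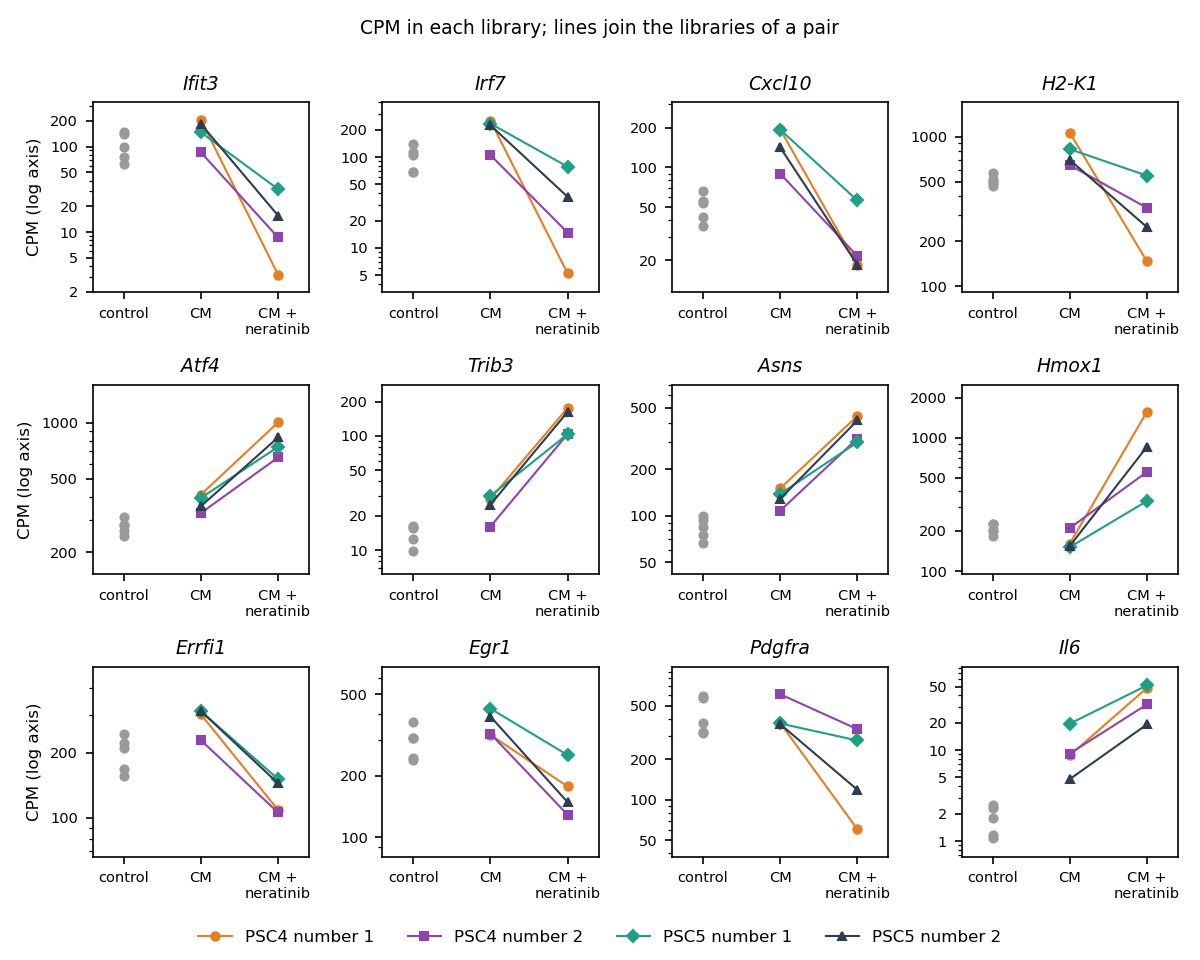
CPM on a log axis (y axis) of 12 genes in the 5 control libraries (grey) and in CM and CM with neratinib (x axis), with a line joining the libraries of each of the 4 pairs. Ifit3, Irf7, Cxcl10 and H2-K1 fall in every pair, most steeply in PSC4 number 1 for Ifit3 and Irf7, whereas Atf4, Trib3, Asns, Hmox1 and Il6 rise in every pair.

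Antigen presentation by MHC class I, which interferon also raises, moved the same way. Here 12 of 13 genes fell (92.3%, against 16.0% of all genes, median -0.80). H2-K1, a classical class I heavy chain, was at 1059, 644, 823 and 698 CPM in CM and 146, 334, 548 and 248 CPM with neratinib. The neratinib library of PSC4 number 1 was lowest, and the highest neratinib value stayed under the lowest CM value (log2 fold change -1.43 ± 0.29 (SE), edgeR adjusted p = 0.00369). Psmb8, a subunit of the immunoproteasome, went from 61.1, 40.01, 48.5 and 51.04 CPM to 3.66, 15.9, 27.4 and 16.7 CPM (log2 fold change -1.80 ± 0.37 (SE), edgeR adjusted p = 0.00433), and the peptide transporter Tap1 from 114, 76.9, 92.7 and 93.4 CPM to 12.7, 38.5, 60.5 and 39.5 CPM (log2 fold change -1.42 ± 0.32 (SE), edgeR adjusted p = 0.00622). The light chain B2m fell by less, at -0.47 on the log2 scale. Only Erap1, the peptidase that trims peptides in the endoplasmic reticulum, did not pass the test (-0.03). H2-K1 and H2-D1 are similar in sequence, so counts may be shared between them. Without the libraries labelled PSC4 number 1 the log2 fold change of H2-K1 was -0.98 and 11 of the 13 genes were called, while in the 8 libraries alone with the block only 4 were.

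Cytokines split, with interferon-responsive chemokines lower and Il6 and Csf3 higher. Cxcl10, a chemokine for T cells that interferon induces, had 194, 89.97, 193 and 142 CPM in CM and 18.3, 21.4, 56.3 and 18.4 CPM with neratinib. All neratinib values were below all CM values (log2 fold change -2.53 ± 0.29 (SE), edgeR adjusted p = 0.000179). Its neighbour Cxcl9 on chromosome 5 went from 1.22, 0.741, 1.3 and 0.637 CPM to 0, 0.0389, 0.173 and 0 CPM, where 3 counts correspond to 0.102 to 0.135 CPM, and was called lower (edgeR adjusted p = 0.000955). Ccl5 (-1.89), the monocyte chemokine Ccl2 (-0.76), Cxcl16 (-0.96), Ccl8 (-0.89) and the cytokine Tslp (-1.35) fell as well. The eosinophil chemokine Ccl11 also fell (log2 fold change -2.06 ± 0.65 (SE), edgeR adjusted p = 0.0301), but not past the threshold on leaving out either library of PSC4 number 1, either library of PSC5 number 2 or the neratinib library of PSC4 number 2 (edgeR adjusted p = 0.0624 to 0.0973). Il6, a cytokine that signals through STAT3, read 8.73, 9.17, 19.5 and 4.796 CPM in CM and 48.5, 31.9, 51.6 and 19.2 CPM with neratinib. It rose in every pair, the PSC5 number 1 library of CM overlapping the lowest neratinib library (log2 fold change 1.88 ± 0.34 (SE), edgeR adjusted p = 0.00211), and control medium held 1.08 to 2.47 CPM. Csf3, which encodes the neutrophil growth factor G-CSF, went from 2.92, 5.22, 7.31 and 1.78 CPM to 27.6, 13.1, 20.5 and 10.3 CPM without overlap (log2 fold change 2.12 ± 0.31 (SE), edgeR adjusted p = 0.000862). Lif (edgeR adjusted p = 0.262), Il1a (edgeR adjusted p = 0.159) and the neutrophil chemokine Cxcl1 (edgeR adjusted p = 0.0731) were not called, at log2 fold changes of 0.31, 1.05 and 0.61. In all, 8 of 22 tested members fell and 2 rose (36.4% and 9.09%, against 16.0% and 16.8% of all genes). Cxcl1 passed without the neratinib library of PSC4 number 2 (edgeR adjusted p = 0.0408), and by limma-voom (adjusted p = 0.0204). Of the list 5 were lower without the replicate block.

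Acute phase genes were called at a share near that of all genes and NF-kB genes above it on the lower side. Lcn2 (lipocalin-2, an iron-siderophore carrier of the acute phase) rose from 44.6, 57.3, 101 and 27.03 CPM in CM to 152, 145, 217 and 104 CPM, all above the highest CM library (log2 fold change 1.52 ± 0.32 (SE), edgeR adjusted p = 0.00488). Serpina3g, a serine protease inhibitor, had 563, 490.1, 618 and 419.8 CPM in CM and 102, 242, 429 and 156 CPM with neratinib (log2 fold change -1.28 ± 0.26 (SE), edgeR adjusted p = 0.0037). The fall was largest in PSC4 number 1, and the neratinib library of PSC5 number 1 overlapped the CM range. Saa3, a serum amyloid gene, did not pass (0.22). Altogether 1 of 16 tested acute phase and complement genes rose and 3 fell (6.25% and 18.8%, against 16.8% and 16.0% of all genes), and 1 fell without the libraries labelled PSC4 number 1, without either of them alone, without the CM library of PSC5 number 2 and without the replicate block. Of 14 NF-kB genes 5 fell (35.7%, against 16.0% of all genes), among them Nfkbie, an inhibitor of NF-kB (log2 fold change -1.24 ± 0.24 (SE), edgeR adjusted p = 0.00318), the adaptor Traf1 (-2.10) and the deubiquitinase Tnfaip3 (-0.60). The inhibitor Nfkbia, a direct NF-kB target, did not (-0.10). There were 3 lower NF-kB genes on leaving out either library of PSC4 number 1, without both, without the neratinib library of PSC5 number 2 and without the replicate block. Socs3, the feedback inhibitor of the IL-6 receptor, was at 0.01 and not called. The STAT3 list of 11 genes held 3 lower and 1 higher (27.3% and 9.09%, against 16.0% and 16.8% of all genes). It held 0 lower once the libraries labelled PSC4 number 1 were removed. In that list 1 gene was lower without the CM library of PSC4 number 1, without the neratinib library of PSC5 number 2 and without the replicate block, and 5 without the neratinib library of PSC5 number 1.

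ATF4 targets rose together. Of 26 listed and tested genes 24 rose and 1 fell (92.3% and 3.85%, against 16.8% and 16.0% of all genes). The rise was at least 2-fold for 20 of them, against 1.55% of all genes, and the median was 1.23. Atf4 at chr15:80255184-80257541 was at 409, 326, 393 and 354 CPM in CM and 1002, 649, 739.6 and 832 CPM with neratinib. Even the lowest neratinib library exceeded the highest CM library and the control range of 244 to 309 CPM (log2 fold change 1.11 ± 0.07 (SE), edgeR adjusted p = 2.48e-06). Trib3, a pseudokinase that ATF4 induces, had 28.2, 16.1, 29.99 and 25.1 CPM in CM and 176, 104, 104 and 163 CPM with neratinib. The lowest neratinib value was 104 CPM and the highest CM value 29.99 CPM (log2 fold change 2.46 ± 0.15 (SE), edgeR adjusted p = 2.48e-06). Sesn2, which restrains mTORC1, and Pck2, the mitochondrial gluconeogenic enzyme, which was not on the list, also separated fully, at log2 fold changes of 1.06 and 1.26. Both were among the 5 higher genes with the largest test statistics at a mean of at least 50 CPM, together with Gpt2, Atf4 and Trib3. Asns (asparagine synthetase) went from 149.7, 107, 138 and 128 CPM to 441, 315, 298 and 413 CPM (log2 fold change 1.48 ± 0.09 (SE), edgeR adjusted p = 2.49e-06). Serine synthesis rose in all its 3 listed enzymes, Phgdh (1.25), Psat1 (1.00) and Psph (1.59).

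Transporters and redox enzymes on the ATF4 list rose as well. Slc7a11, the cystine-glutamate exchanger shown above with 2 CARE matches, read 29.4, 12.8, 23.8 and 20.7 CPM in CM and 172, 47.4, 79.2 and 130.4 CPM with neratinib. PSC4 number 1 and PSC5 number 2 were the highest neratinib libraries (log2 fold change 2.24 ± 0.20 (SE), edgeR adjusted p = 3.44e-05). Pycr1, the last enzyme of proline synthesis, went from 13.8, 10.5, 12.4 and 14.5 CPM to 86.4, 40.9, 41.2 and 88.4 CPM (log2 fold change 2.27 ± 0.17 (SE), edgeR adjusted p = 1.37e-05), and the glutathione-degrading enzyme Chac1 from 17.4, 16.3, 18.7 and 15.6 CPM to 97.5, 47.9, 47.8 and 75.2 CPM (log2 fold change 1.93 ± 0.15 (SE), edgeR adjusted p = 1.79e-05). Cth, which makes cysteine from cystathionine, rose (2.04), while Cbs, the enzyme before it in that route, was the 1 member that fell (-0.80, edgeR adjusted p = 0.044, from 1.95 to 3.62 CPM in CM), a call lost in 6 of the 8 fits that left out 1 library, all but those without the CM library of PSC5 number 1 or the neratinib library of PSC4 number 2, without the libraries labelled PSC4 number 1 and without the replicate block. The stress factor Atf3 did not pass the test (0.21) and Ddit3, the factor CHOP, rose by 0.61. In 24 of the 26 genes CM and neratinib values did not overlap, against the same 18.7%. The count of 24 higher held in each fit that left out 1 library and without the libraries labelled PSC4 number 1, and was 22 in the 8 libraries alone without the block.

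NRF2 targets, the antioxidant genes that share Slc7a11 with the ATF4 list, rose in 17 of 21 tested cases and fell in none. These shares were 81.0% and 0%, against 16.8% and 16.0% of all genes, and the median was 0.61. Hmox1, the heme-degrading enzyme, had 160.4, 209.9, 151 and 154 CPM in CM and 1565, 554, 335 and 856 CPM with neratinib. From highest to lowest the neratinib libraries were PSC4 number 1, PSC5 number 2, PSC4 number 2 and PSC5 number 1, all above CM and above the control range of 184 to 226 CPM (log2 fold change 2.15 ± 0.30 (SE), edgeR adjusted p = 0.00064). Nqo1, a quinone reductase, went from 15.3, 15.7, 12.9 and 17.8 CPM to 53.6, 19.7, 19.9 and 53.6 CPM, with PSC4 number 1 and PSC5 number 2 showing most of the rise (log2 fold change 1.16 ± 0.26 (SE), edgeR adjusted p = 0.00566). Control medium held 27.1 to 35.2 CPM of Nqo1, above CM. The thioredoxin reductase Txnrd1 (0.94), Srxn1 (0.85), Gclc (0.65) and both ferritin chains, Fth1 (0.50) and Ftl1 (0.54), rose as well. Without the libraries labelled PSC4 number 1 the count was 12.

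Genes of the cytosolic ribosome rose by small amounts. Of 40 ribosomal proteins 37 rose and none fell (92.5% and 0%, against 16.8% and 16.0% of all genes). The log2 fold changes were -0.04 to 0.79, with a median of 0.41. The count of higher genes was 29 without the libraries labelled PSC4 number 1 and 28 without the replicate block. In the 8 libraries alone it was 28 with the block and 6 without it. Rps4x had 642, 711, 660.1 and 664 CPM in CM and 1141, 1037, 841 and 1180.0 CPM with neratinib. The groups did not overlap (log2 fold change 0.64 ± 0.10 (SE), edgeR adjusted p = 0.0011). Rpl4 went from 718, 724, 724 and 753 CPM to 1234, 975, 855 and 1323 CPM (log2 fold change 0.57 ± 0.10 (SE), edgeR adjusted p = 0.00176). In the PSC5 number 1 pair the rise was smallest for both. Ribosomal protein genes have near-identical processed copies, so their counts carry that uncertainty, and their transcripts are short. Among the 3481 shortest tested genes the median was 0.04, with 20.2% called higher and 13.0% lower. Among the 3470 longest it was -0.05, with 14.6% called higher and 18.9% lower. The part of length in the ribosomal rise was not tested. The subunits of oxidative phosphorylation, also short, had a median of 0.07. Of those 36 subunits 7 rose, Uqcrq most (0.49), and 1 fell (19.4% and 2.78%, against 16.8% and 16.0% of all genes), and only 2 rose without the libraries labelled PSC4 number 1. In fits that left out 1 library, 2 (without the CM library of PSC4 number 1, and also on leaving out either library of PSC5 number 2) to 11 (without the neratinib library of PSC5 number 1) of them rose, with 3 without the CM library of PSC4 number 2 or either neratinib library of PSC4. The fit without the replicate block gave 2, and with upper-quartile scaling 3.

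Chaperones of the endoplasmic reticulum mostly did not rise. Of 20 genes 9 fell and 3 rose (45% and 15%, against 16.0% and 16.8% of all genes, median -0.09). Calr (calreticulin) went from 1249.9, 1516, 1333 and 1371 CPM to 940.0, 1143, 1061 and 968 CPM without overlap (log2 fold change -0.41 ± 0.06 (SE), edgeR adjusted p = 0.000726), and Hspa5, the chaperone BiP, fell by 0.22 on the log2 scale. Herpud1, a component of the degradation machinery that ATF4 also induces, rose from 55.6, 58.3, 55.99 and 55.7 CPM to 125, 105, 102 and 114 CPM (log2 fold change 0.98 ± 0.09 (SE), edgeR adjusted p = 3.44e-05), with Sel1l of the same machinery (0.46). Syvn1, the ubiquitin ligase that binds Sel1l, fell (-0.38).

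Lysosomal genes rose in 13 of 33 tested cases and fell in 1 (39.4% and 3.03%, against 16.8% and 16.0% of all genes, median 0.21). Ctsl (cathepsin L, a lysosomal protease) had 1137, 1251, 1237 and 1028 CPM in CM and 2223, 2137, 1669 and 1669 CPM with neratinib. All neratinib libraries were above all CM libraries (log2 fold change 0.72 ± 0.08 (SE), edgeR adjusted p = 0.000232). Sqstm1, the autophagy receptor p62, went from 473, 373, 457 and 424 CPM to 1082, 527, 532 and 874 CPM (log2 fold change 0.76 ± 0.15 (SE), edgeR adjusted p = 0.00399). The cholesterol exporter Npc1 (0.64), the glycosidase Gla (0.71) and the proton pump subunit Atp6v1h (0.66) rose too, and cathepsin F (Ctsf) fell (-0.86). The count of higher members was 7 without the libraries labelled PSC4 number 1 and 8 without the CM library among them.

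Sterol synthesis was lower along most of the pathway. Of 24 genes 21 fell and none rose (87.5% and 0%, against 16.0% and 16.8% of all genes), with a median of -0.35. Hmgcs1, the HMG-CoA synthase, was at 299, 241, 228 and 194 CPM in CM and 172, 173, 167 and 104 CPM with neratinib. The neratinib library of PSC5 number 2 was lowest and the groups did not overlap (log2 fold change -0.64 ± 0.11 (SE), edgeR adjusted p = 0.00198). Lss, the lanosterol synthase, went from 181, 157, 151 and 125 CPM to 113, 111, 106 and 77.1 CPM (log2 fold change -0.59 ± 0.11 (SE), edgeR adjusted p = 0.00211). All 24 genes had a higher mean in CM than in control medium, and none had a mean below control with neratinib. Hmgcs1 in control medium was at 103 to 137 CPM. The number of lower genes was 14 without the libraries labelled PSC4 number 1. Of 13 fatty acid genes 6 fell (46.2%, against 16.0% of all genes). Among them were the elongase Elovl6 (log2 fold change -0.62 ± 0.12 (SE), edgeR adjusted p = 0.00299) and the desaturase Scd1 (log2 fold change -0.52 ± 0.11 (SE), edgeR adjusted p = 0.00424), while Fasn did not pass (0.22).

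Glucose metabolism and lipid storage moved less evenly. Of 29 glycolysis and hypoxia genes 10 rose and 2 fell (34.5% and 6.90%, against 16.8% and 16.0% of all genes, median 0.37). Hk2 (hexokinase 2) had 77.3, 62.9, 97.3 and 64.3 CPM in CM and 146, 82.1, 119.9 and 95.9 CPM with neratinib. The rise was largest in PSC4 number 1 and the groups overlapped (log2 fold change 0.54 ± 0.10 (SE), edgeR adjusted p = 0.00215). Vegfa, the endothelial growth factor, rose from 169, 151, 204 and 139 CPM to 301, 193, 285 and 247 CPM (log2 fold change 0.62 ± 0.11 (SE), edgeR adjusted p = 0.00191). Only 3 of the list rose without the libraries labelled PSC4 number 1, 4 without the CM library alone, 5 without the neratinib library alone and 6 without the CM library of PSC5 number 2. Plin2, which coats lipid droplets, went from 104, 96.2, 96.8 and 103 CPM to 469.7, 235, 139.6 and 278 CPM, all above CM (log2 fold change 1.41 ± 0.22 (SE), edgeR adjusted p = 0.00111). Of 17 lipid droplet and adipogenic genes 3 rose and 2 fell (17.6% and 11.8%, against 16.8% and 16.0% of all genes), and the regulator Pparg did not pass (0.17). No member of this list fell without the replicate block, and 1 did in each fit that left out 1 library other than the CM library of PSC4 number 2 and the neratinib library of PSC5 number 1.

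Matrix genes were lower in part, most in the PSC4 number 1 pair, where the median of the matricellular list was -0.90, against -0.13 in PSC5 number 1. Thbs2, a matricellular thrombospondin at chr17:14665500-14694235, had 1157, 1059, 1164 and 905 CPM in CM and 254, 498, 588 and 249.5 CPM with neratinib. No neratinib library reached the CM range, and this gene kept its call in each alternative fit (log2 fold change -1.52 ± 0.17 (SE), edgeR adjusted p = 0.000188). Its relative Thbs1 went from 735, 774, 549 and 664 CPM to 84.3, 424, 406 and 240.4 CPM (log2 fold change -1.36 ± 0.33 (SE), edgeR adjusted p = 0.0093). Postn (periostin) read 192, 349, 210.1 and 135 CPM in CM and 3.36, 156, 171 and 9.81 CPM with neratinib. Both PSC4 number 1 and PSC5 number 2 fell to under 10 CPM, the other pairs overlapped (log2 fold change -2.21 ± 0.71 (SE), edgeR adjusted p = 0.0316), and the call was lost without the libraries labelled PSC4 number 1 (edgeR adjusted p = 0.106), without either of them alone and on leaving out either library of PSC5 number 2. Tnc (tenascin-C) was not called (log2 fold change -0.46 ± 0.24 (SE), edgeR adjusted p = 0.158). Of 25 matricellular genes 8 fell and none rose (32% and 0%, against 16.0% and 16.8% of all genes). The count of lower genes was 2 without the libraries labelled PSC4 number 1. It was 3 without the CM library and 5 without the neratinib library of PSC4 number 1, and 4 without the CM library of PSC5 number 2. It was 4 without the replicate block.

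Collagen chains showed the same dependence. Col1a1, the main fibrillar chain, was at 1724, 1279.7, 1643 and 1492 CPM in CM and 422, 1045, 1671 and 793 CPM with neratinib. It was lower in PSC4 number 1, PSC4 number 2 and PSC5 number 2, level in PSC5 number 1, and did not pass the test (log2 fold change -0.73 ± 0.29 (SE), edgeR adjusted p = 0.0686), although it did without the neratinib library of PSC5 number 1 (edgeR adjusted p = 0.0228). Col28a1, a minor chain, went from 39.9, 18.3, 27.3 and 22.6 CPM to 0.213, 7.98, 12.7 and 3.299 CPM without overlap (log2 fold change -2.30 ± 0.63 (SE), edgeR adjusted p = 0.0154). Of 32 listed and tested collagens 9 fell and none rose (28.1% and 0%, against 16.0% and 16.8% of all genes), and the median was -0.62. The list does not hold Col11a2, a fibrillar chain that rose by 3.47 on the log2 scale. The number of lower chains was 5 without the libraries labelled PSC4 number 1, 4 without the CM library among them and 5 without the neratinib library of PSC4 number 2, and 3 without the replicate block. The list medians per pair were -1.21, -0.28, 0.02 and -0.73, so the shift was close to 0 in the PSC5 number 1 pair. Among proteases and their inhibitors 10 of 32 fell and 3 rose (31.25% and 9.38%, against 16.0% and 16.8% of all genes). Mmp13 (collagenase 3) rose from 21.9, 75.2, 23.5 and 19.7 CPM to 88.5, 123, 35.9 and 36.9 CPM (log2 fold change 1.08 ± 0.24 (SE), edgeR adjusted p = 0.00565), with an adjusted p of 0.1 without the replicate block. The plasminogen activator Plat fell (-1.02), as did the inhibitor Timp3 (-1.06). Leaving out the libraries labelled PSC4 number 1 left 4 lower proteases, leaving out the CM library alone left 5, and 4 were lower without the replicate block. Of 18 contractile genes 2 fell (11.1%, under the 16.0% of all genes), Tpm1 (-0.51) and Cnn1 (-1.07), and neither was called without the libraries labelled PSC4 number 1 (edgeR adjusted p = 0.0566 and 0.0698). Leaving out the CM or the neratinib library of PSC5 number 1 gave 4 lower contractile genes, while Cnn1 lost its call without any one of the CM libraries of PSC4 number 1, PSC4 number 2 and PSC5 number 2 and of the neratinib libraries of PSC4 number 2 and PSC5 number 2. Acta2, the smooth muscle actin of activated stellate cells, was not called (log2 fold change -0.20 ± 0.28 (SE), edgeR adjusted p = 0.619).

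Receptors for other growth factors included 2 that mark stellate cells. Pdgfra had 374, 610.0, 369.8 and 366 CPM in CM and 60.5, 336, 276 and 119 CPM with neratinib. The fall was steepest in PSC4 number 1 and PSC5 number 2, and the groups did not overlap (log2 fold change -1.34 ± 0.31 (SE), edgeR adjusted p = 0.00664). Without the replicate block the adjusted p was 0.0975. Pdgfrb went from 417, 479, 488 and 294 CPM to 103, 341, 389.7 and 139 CPM with overlap (log2 fold change -0.91 ± 0.25 (SE), edgeR adjusted p = 0.0169), and was not called without the libraries labelled PSC4 number 1 (edgeR adjusted p = 0.0614), without the CM library among them (edgeR adjusted p = 0.0648) or without the neratinib library of PSC5 number 2 (edgeR adjusted p = 0.0591). Their ligands Pdgfa (0.65) and Pdgfc (0.70) rose. The FGF receptor Fgfr3 (log2 fold change -1.14 ± 0.22 (SE), edgeR adjusted p = 0.00296) and Fgf1 (-1.09) fell. Over the whole list of 28 tested receptors and ligands 5 rose and 5 fell (17.9% each, near the 16.8% and 16.0% of all genes), and 8 fell without the neratinib library of PSC5 number 1. Of the 14 stellate markers 3 fell (Fap, Pdgfra and Pdgfrb) and 2 rose (21.4% and 14.3%, near the same shares), and 1 fell without the CM library of PSC4 number 1, without the neratinib library of PSC5 number 2 and without the replicate block. Fap lost its call without the libraries labelled PSC4 number 1 (edgeR adjusted p = 0.0879), without either of them alone and without either library of PSC5 number 2. By limma-voom Fap was not called either (adjusted p = 0.0559).

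In the IGF and PI3K list 10 of 24 genes fell and 1 rose (41.7% and 4.17%, against 16.0% and 16.8% of all genes). Igf2 (insulin-like growth factor 2) fell from 3.13, 3.56, 1.84 and 1.54 CPM to 0.0851, 0.623, 0.173 and 0.137 CPM (log2 fold change -3.40 ± 0.59 (SE), edgeR adjusted p = 0.00172), and Igfbp2, which binds it, from 7.78, 4.13, 7.04 and 4.695 CPM to 1.28, 0.506, 2.897 and 1.15 CPM (log2 fold change -2.16 ± 0.48 (SE), edgeR adjusted p = 0.00624). All neratinib values were below the control ranges of 2.98 to 15.5 CPM and 16.3 to 31.5 CPM. In CM alone all Igfbp2 values and the PSC5 values of Igf2 were already below these ranges. Of genes that FOXO factors can raise when PI3K is off, Pik3ip1 (-0.73) and Ccng2 (-0.59) were lower, Bcl6, the 1 gene of the list that rose, was higher (0.31, but edgeR adjusted p = 0.276 without the replicate block), and Irs2 (-0.06), Insr (0.17), Klf15 (0.27), Sesn3 (-0.42) and Pdk4 (-0.17) were not called. The count of lower genes was 6 without the libraries labelled PSC4 number 1 and 5 without the CM library among them or without the replicate block. Of 33 WNT, BMP and Notch genes 9 fell and 1 rose, the BMP target Id1 (0.66). These shares were 27.3% and 3.03%, against 16.0% and 16.8% of all genes. Axin2, a WNT target, went from 3.296, 4.59, 2.72 and 2.41 CPM to 0.638, 1.71, 1.73 and 1.15 CPM without overlap (log2 fold change -1.31 ± 0.25 (SE), edgeR adjusted p = 0.00309), and Notch1 fell by 1.00 on the log2 scale. Here 4 genes were called lower without the libraries labelled PSC4 number 1, 4 without the CM library and 5 without the neratinib library among them, and 4 without the neratinib library of PSC5 number 2. Without the replicate block 3 were, and by limma-voom 5.

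Proliferation genes changed by small amounts. Mki67, the Ki-67 antigen, was at 386, 486, 446 and 394 CPM in CM and 378, 403, 405 and 326 CPM with neratinib. It was lower in each pair with overlapping groups and did not pass the test (log2 fold change -0.18 ± 0.09 (SE), edgeR adjusted p = 0.149). Of 28 S phase genes 8 fell (28.6%) and 1 rose (E2f1), with a median of -0.06, and of 24 mitosis genes 5 fell (20.8%) and 1 rose (Cenpf), with a median of -0.09, against 16.0% lower over all genes. Ccne1 (cyclin E1) went from 26.3, 23.6, 24.9 and 26.3 CPM to 16.9, 18.5, 21.8 and 20.6 CPM (log2 fold change -0.38 ± 0.08 (SE), edgeR adjusted p = 0.00496), and Top2a (topoisomerase II alpha) from 682, 787, 769 and 693 CPM to 621, 599, 657 and 562 CPM (log2 fold change -0.26 ± 0.07 (SE), edgeR adjusted p = 0.0103). The replication helicase genes Mcm2 to Mcm7 were not called. Leaving out the CM library of PSC4 number 1 gave 5 lower S phase genes, and leaving out the neratinib library of that pair gave 8 lower mitosis genes. Without the replicate block 3 of each list were lower, and the rise of Cenpf was not called (edgeR adjusted p = 0.159). Cdkn1a, the CDK inhibitor p21, rose from 107, 72.1, 68.3 and 167 CPM to 216, 113, 128 and 253 CPM in every pair (log2 fold change 0.77 ± 0.18 (SE), edgeR adjusted p = 0.00696), though not past the threshold without the replicate block (edgeR adjusted p = 0.123), and Cdkn1c, the inhibitor p57, fell from 0.918 to 1.55 CPM in CM (log2 fold change -1.50 ± 0.36 (SE), edgeR adjusted p = 0.00844). Of 20 CDK inhibitors and p53 targets 3 rose and 4 fell (15% and 20%, near the 16.8% and 16.0% of all genes), with 1 higher without the replicate block. The p53 targets Mdm2 (0.17) and Ccng1 (-0.11) were not called.

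Of the 10 largest rises among genes with at least 10 CPM, 7 lay outside these lists. Car6, a secreted carbonic anhydrase, was at 1.43, 0.776, 1.07 and 1.27 CPM in CM and 54.3, 12.3, 7.35 and 45.1 CPM with neratinib (log2 fold change 4.50 ± 0.49 (SE), edgeR adjusted p = 0.000151). Its level in CM was near that in control medium (0.755 to 1.04 CPM). P2rx3, an ATP-gated channel best known from sensory neurons, had 19.3, 4.02, 13.2 and 11.97 CPM in CM and 208, 119.9, 118 and 204 CPM with neratinib. All 4 neratinib libraries were far above the CM and control libraries, the latter at 2.01 to 10.7 CPM (log2 fold change 3.86 ± 0.24 (SE), edgeR adjusted p = 2.48e-06). Cox6a2, the muscle isoform of a cytochrome oxidase subunit (3.66), the fibrillar chain Col11a2 (3.47), the skin adhesion protein Cdsn (3.16), the alcohol dehydrogenase Adh7 (2.36) and the arginine transporter Slc7a3 (2.24) came next with Vldlr, Trib3 and Pycr1. Of the 10 largest falls, 4 were Ifit3b, Ifit3, Mx1 and Mx2. Mest, an imprinted hydrolase gene, read 42.5, 6.92, 4.896 and 27.5 CPM in CM and 0.724, 1.48, 1.902 and 1.97 CPM with neratinib. The CM values of PSC4 number 1 and PSC5 number 2 were far above the other pairs (log2 fold change -3.53 ± 0.71 (SE), edgeR adjusted p = 0.00365). The rest were Tgtp1 (-3.66) and Tgtp2 (-3.18), near-identical interferon-inducible GTPases whose counts may be split, Gm12250 (-3.51), Ifi27l2a (-3.13) and Ifi206 (-3.01). Besides Errfi1 and Nab2, the aldose reductase Akr1b3 (-0.49), the mRNA decay factor Zfp36l2 (-0.55) and the ubiquitin ligase Rad18 (-0.54) had the largest test statistics among lower genes with at least 50 CPM.

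**Figure D4:**
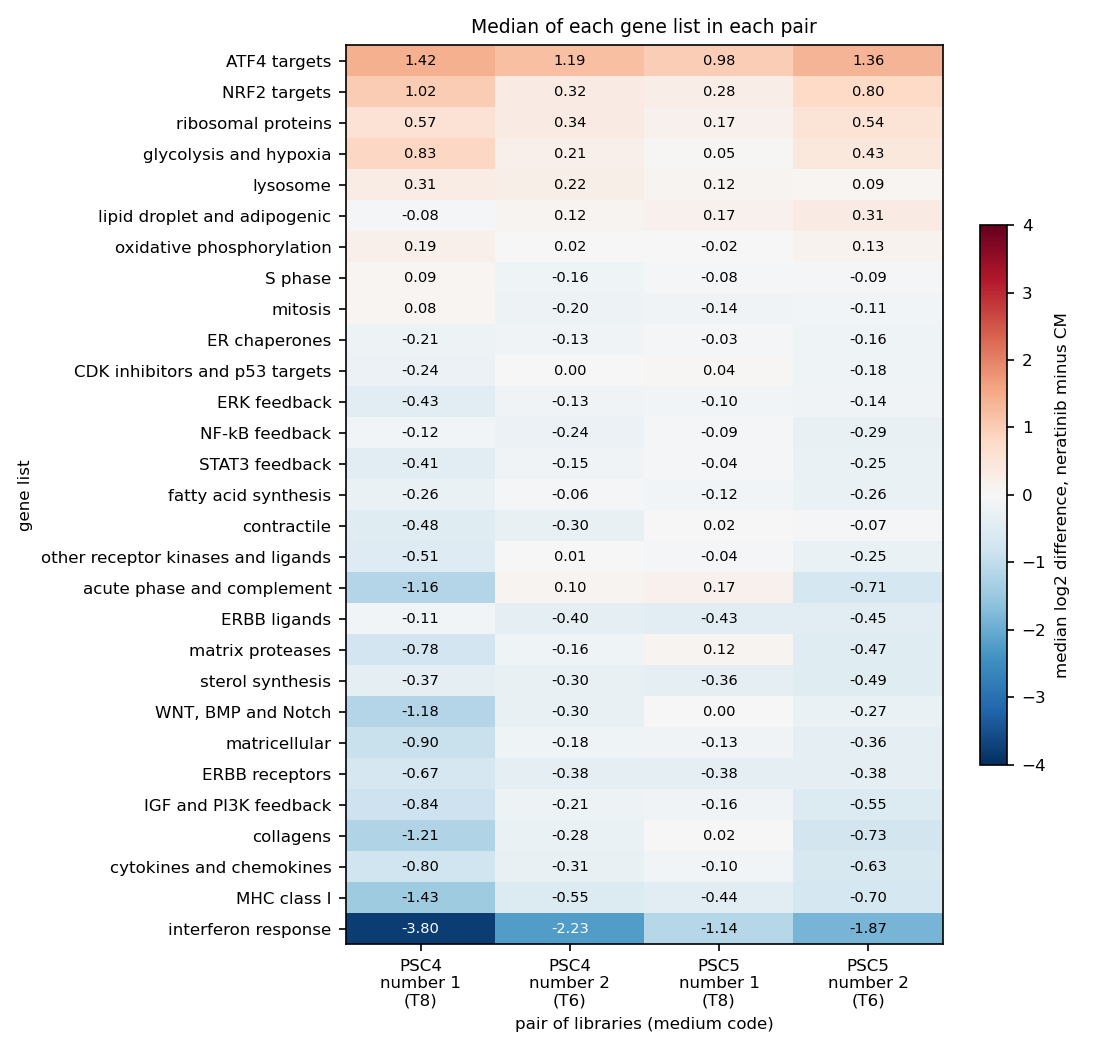
Median log2 difference of each of 29 gene lists (y axis) in each pair of libraries (x axis, with the medium code), red for higher and blue for lower with neratinib. The interferon response row runs from -3.80 in PSC4 number 1 to -1.14 in PSC5 number 1, and the ATF4 row from 0.98 to 1.42.

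The size of the differences varied between the 4 pairs. The SD of the log2 differences over all tested genes was 1.00 in the PSC4 number 1 pair, 0.60 in PSC4 number 2, 0.54 in PSC5 number 1 and 0.70 in PSC5 number 2. The medians of the interferon response list were -3.80, -2.23, -1.14 and -1.87 in that order, and those of the ATF4 targets 1.42, 1.19, 0.98 and 1.36. For the ribosomal proteins they were 0.57, 0.34, 0.17 and 0.54 and for sterol synthesis -0.37, -0.30, -0.36 and -0.49. PSC4 number 1 had the largest shift and PSC5 number 1 the smallest in the interferon, ATF4, NRF2, ribosomal and collagen lists, and both pairs carry the code T8. By line, the interferon median was -2.96 in PSC4 and -1.48 in PSC5. The test of that difference, an interaction of neratinib with line, called 0 of 13923 genes (0%) in edgeR, with 439 genes at an unadjusted p under 0.05 (3.15%). The interaction with medium code also called 0 genes (0%), with 170 at an unadjusted p under 0.05 (1.22%). Each arm of these tests had 2 pairs. Leaving out the CM library of PSC4 number 2 gave 53 genes for line, and leaving out the neratinib library of PSC5 number 1 gave 41 for medium code.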

How the data were processed

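RNA of mouse pancreatic stellate cells was sequenced in 17 libraries. The values are estimated counts per Ensembl gene that the authors deposited, made with Salmon 1.4.0 on build GRCm38/mm10 per the submitters' processing notes, which also list DESeq 2. The order of those steps, the annotation and the strand setting are not given in the sources used here. Of 35896 gene IDs 35437 had a symbol in the file, and 459 without one stayed in the fit. Values above 0 were whole in the minority (74.8% were not, tolerance 1e-09) and were rounded to whole counts.

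From these counts the libraries were compared with edgeR 4.0.16 (R 4.3.3): TMM scaling, filterByExpr (minimum count 10, minimum total 15, 13923 genes left), and the quasi-likelihood test on all 17 libraries with group and a replicate block of 5 levels (line by number), 9 residual degrees of freedom, a common biological coefficient of variation of 13.7% and Benjamini-Hochberg adjustment over all genes. A gene was called at an adjusted p under 0.05. All numbers pair the samples here, since line and medium code are shared within a pair. Same-numbered CM and neratinib libraries of a line deviated together from their group means (r = 0.22 to 0.63 over genes in the 4 pairs). For other libraries of the same line r was -0.39 to -0.06, and between lines -0.28 to 0.24, the top of which exceeded the lowest pair. Taking deviations from a mean of 4 libraries pushes the values of non-partners down. CPM are the counts scaled to the TMM library size. Positions are those of GENCODE M21 on GRCm38 and promoters those of RefSeq. Tests on simulated counts with the same design recovered 84 of 100 genes changed by 1 log2 unit and 99 of 100 changed by 2 log2 units, with 5 false calls among 13923 genes. The simulation held no difference between lines, blocks or the other groups, and gave each changed gene the same change in every pair. The real pairs differed in size, so these rates do not measure the accuracy of the calls reported here. DESeq2 1.42.0, limma 3.58.1 (limma-voom), other scalings and filters, fits without the block and fits without single libraries were the alternatives. Tables and figures were made with Python 3.11.15.

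The question, the gene lists and the rules were chosen with earlier results of these data known. Named genes were the 10 largest rises and 10 largest falls among called genes whose higher group averaged 10 CPM or more and whose 4 pairs moved alike, the 5 higher and 5 lower genes with the largest test statistic at a mean of at least 50 CPM, up to 4 called members of each list by fold change, and a fixed set of ERBB, cytokine, matrix and cycle genes. Other list members were named after their values were seen. Some genes that these rules name are not reported here.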

Additional observations from a re-analysis of the deposited data

Results flagged for a closer look

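In 22 of 308 groups of 4 libraries examined (each named gene in CM and with neratinib), 1 library stood apart from the other 3 by Dixon's ratio (above 0.829), where chance gives about 1 in 20. The CM library of PSC4 number 2 was the one in 13 of them. There it was low for the ERBB inhibitor Errfi1 (228 CPM, others 301 to 312) and the EGR corepressor Nab2 (143 CPM, others 170 to 172). It was high for the receptor Pdgfra (610.0 CPM, others 366 to 374), for Igfbp4, which binds IGF (474 CPM, others 134 to 155), and for the WNT antagonist Sfrp1 (222 CPM, others 35.1 to 54.3). Higher values in it also marked the collagenase Mmp13 (75.2 CPM), the collagens Col6a6 (1.41 CPM) and Col8a2 (1.48 CPM), the adipogenic factor Cebpa (8.47 CPM), Hmox1 (209.9 CPM), Herpud1 (58.3 CPM), the polymerase Pola1 (196 CPM) and Cenpf (130.5 CPM). This library carries the code T6.

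With neratinib, the library of PSC5 number 1 was high for Cxcl10 (56.3 CPM, others 18.3 to 21.4), Traf1 (2.16 CPM, others 0.458 to 0.584) and Cd74, the MHC class II invariant chain (27.9 CPM, others 2.89 to 4.32), and low for the ATF4 target Vldlr (89.97 CPM, others 140.4 to 150.7). The neratinib library of PSC4 number 2 was high for Igf2 (0.623 CPM) and the WNT antagonist Dkk2 (4.01 CPM, others 0.170 to 0.735), and that of PSC5 number 2 low for Hmgcs1 (104 CPM, others 167 to 173). In CM, PSC4 number 1 was high for Spry1 (34.4 CPM, others 20.5 to 22.7) and PSC5 number 2 low for the desaturase Scd2 (1183 CPM, others 1391 to 1401).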

How the results depend on the processing

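Without the replicate block 2850 genes were called (1509 higher, 1341 lower), of which 2843 were among the 4563, and 611 were changed by at least 2-fold. The fit on the 8 libraries alone called 2184 with the block (1160 higher, 1024 lower, 475 by at least 2-fold) and 602 without it (337, 265 and 217). Without the libraries labelled PSC4 number 1 it was 2407 (1244, 1163 and 430). Leaving out 1 library gave 2604 (1339 higher, 1265 lower, 502 by at least 2-fold, without the CM library of PSC4 number 1) to 5073 (2566, 2507 and 998, without the neratinib library of PSC5 number 1). Other scalings, filters and tools gave 3883 to 4894. With upper-quartile scaling 2196 were higher and 2353 lower. The tests by line and by medium code gave 0 to 53 and 0 to 41 genes on leaving out 1 library, and that by medium code 1 gene without the libraries labelled PSC4 number 1; they were not run in the 8 libraries alone, DESeq2 or limma-voom.

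Of 142 called named genes 44 were called in all alternatives and none changed direction. The losses were 96 in the 8 libraries without the block, 40 without the block, 39 in the 8 libraries with it and 34 without PSC4 number 1. In the 8 libraries without the block the interferon list kept 23 calls and the ATF4 list 22, and no other list more than 6. In the 8 libraries with the block MHC class I had 4, the NRF2 targets 10 and glycolysis 2 higher. Directions changed for 3 genes that were never called. Egfr read 0.054 without PSC4 number 1 and -0.16 to 0.078 on leaving out 1 library, Acta2 0.10, and -0.41 to 0.12, and Ereg -0.18 to 0.20. The cause was not tested. Depth limits the low genes: 3 counts were 0.102 to 0.135 CPM.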

Other observations

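Further gene groups were chosen after their values were seen. They are given as a description only and add no support to the interferon and ATF4 results. Of 15 tested guanylate-binding proteins and immunity-related GTPases, which attack vacuoles of intracellular pathogens, all 15 were lower with neratinib by at least 2-fold (median log2 fold change -1.99). Of all genes 4.19% were called lower by that much. Irgm1 went from 223, 124, 194 and 218 CPM in CM to 28.3, 42.9, 102 and 87.2 CPM (log2 fold change -1.65 ± 0.28 (SE), edgeR adjusted p = 0.00152) and Gbp3 from 279, 109, 213 and 223 CPM to 6.38, 16.2, 93.3 and 39.8 CPM (log2 fold change -2.73 ± 0.55 (SE), edgeR adjusted p = 0.0037). Of 20 tRNA synthetases, many of which ATF4 induces, 16 were higher (80%, against 16.8% of all genes, median 0.70). Sars, which charges the serine tRNA, was at 265, 191, 240.4 and 247 CPM in CM and 596, 385, 362 and 523 CPM with neratinib, with every neratinib value above every CM value (log2 fold change 0.97 ± 0.09 (SE), edgeR adjusted p = 5.90e-05). Of 27 translation factors 17 were higher and none lower (63.0% and 0%, against 16.8% and 16.0% of all genes). Eif4ebp1, the inhibitor of cap-dependent translation, rose furthest (log2 fold change 1.30 ± 0.11 (SE), edgeR adjusted p = 2.35e-05). Of 16 enzymes and transporters of one-carbon, proline and amino acid metabolism, 5 of them also among the 26 ATF4 targets, 12 were higher (75%, against 16.8% of all genes). They included Aldh1l2, a mitochondrial folate enzyme, which went from 128, 108, 103 and 116 CPM to 363, 336, 306 and 451 CPM (log2 fold change 1.67 ± 0.11 (SE), edgeR adjusted p = 2.81e-06).

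Retinoid genes, of interest because quiescent stellate cells store vitamin A, were called at shares near those of all genes, 4 of 20 higher and 4 lower (20% each, against 16.8% and 16.0%). Crabp1, which binds retinoic acid in the cytosol, had 100.3, 23.1, 73.2 and 84.6 CPM in CM and 18.6, 2.49, 11.5 and 11.9 CPM with neratinib. All neratinib libraries were below all CM libraries (log2 fold change -2.76 ± 0.16 (SE), edgeR adjusted p = 2.48e-06). Rarres2 (the chemoattractant chemerin) was also lower (log2 fold change -2.54 ± 0.50 (SE), edgeR adjusted p = 0.00358), whereas Dhrs9, a retinol dehydrogenase, was higher (log2 fold change 1.77 ± 0.42 (SE), edgeR adjusted p = 0.00825). Of 14 imprinted genes 6 were lower and 1, Grb10, higher (42.9% and 7.14%, against 16.0% and 16.8% of all genes). Among the lower ones Peg10 went from 252, 121, 131 and 229 CPM to 23.2, 38.3, 60.8 and 39.3 CPM (log2 fold change -2.16 ± 0.31 (SE), edgeR adjusted p = 0.00077).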
